A study of Mus musculus with 12 samples.

Results

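Mice that carried Gfap-Cre and a single floxed Tardbp allele (cHet) were compared with floxed mice that carried no Cre (control), in RNA sequencing of spinal cord. Every gene with a mean of at least 1 TPM (an abundance per gene scaled for transcript length and library) over the 8 libraries of these groups was taken, which gave 15271 of the 36121 genes in the deposited table. The study asked what follows when TDP-43 is removed from astrocytes, and the cHet mice are its intermediate genotype. Control mice were Tardbp-fl/fl, cHet mice were Gfap-Cre with Tardbp-fl/+, and a further group, cKO, was Gfap-Cre with Tardbp-fl/fl. All were C57BL6 mice of 3 months, with 4 mice in a group, 2 of them labelled male and 2 female, and each library came from its own mouse. Controls carried both floxed alleles and no Cre, whereas cHet mice carried Cre and 1 unfloxed allele, so the effect of Cre itself and that of the lost allele cannot be told apart. The labels give no batch.

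TDP-43, the product of Tardbp, is a nuclear RNA-binding protein that is made in every cell type of the cord. It holds unannotated (cryptic) exons out of messenger RNA, keeps long-intron transcripts intact and limits its own messenger RNA. Gfap, whose promoter drives the Cre, encodes the intermediate filament of astrocytes, the glia that buffer ions and transmitters and that take on reactive states in injury and motor neuron disease.

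No gene differed between cHet and control at an adjusted p under 0.05 (limma with Benjamini-Hochberg adjustment, 0 of 15271 genes, 0%), and the smallest adjusted p was 0.0860. At an unadjusted limma p under 0.05, called nominal here, there were 1727 genes (11.3%). Of these, 1121 were higher in cHet (7.34%) and 606 were lower (3.97%). The groups did not overlap, meaning that every cHet library lay on 1 side of every control library, for 626 genes higher in cHet (4.1% of those tested) and 322 lower (2.11%). With all libraries scaled to the same total, the split turned to 374 nominally higher and 1467 lower. The median difference over all genes was 0.01 on the log2(TPM + 0.5) scale, a scale that understates the change of genes with low TPM, and 92.0% of genes differed by less than 0.25. Cytosolic and endoplasmic reticulum chaperones, nuclear-encoded respiratory chain subunits and ribosomal proteins had large shares of nominally higher members, and short genes outside the ribosomal and respiratory lists were also nominally higher more often than genes as a whole. For comparison, 1360 genes (8.91%) were called for cKO against control in the same fit.

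The 8 libraries were alike in their broad make-up. Pearson's r between any pair, over log2 values of all genes tested, was 0.981 to 0.986, and each had 15188 to 15384 genes at 1 TPM or more. Read depth is unknown, since TPM keeps no record of it. The precision that 4 mice gave depended on the level: the median SE of a log2 difference was 0.157 for genes of 1 to 5 TPM, 0.0561 for 20 to 100 TPM and 0.0406 for 100 TPM or more. One control library went against its label: control replicate 1, labelled male, had Ddx3y at 0.288 TPM and Eif2s3y at 0.658 TPM, whereas control replicate 2 had 34.3 and 37.7 TPM. The Y-linked genes of the other 7 libraries were as labelled, so by these genes the control group held 1 male and 3 females. Without that library, and with sex as a covariate, the counts of members higher in cHet at an unadjusted p under 0.05 described below were 13 in place of 17 cytosolic heat shock chaperones, 11 in place of 12 endoplasmic reticulum chaperones, 51 in place of 57 ribosomal proteins and 23 in place of 26 complex I subunits. Markers of tissue outside the cord were measured in part. At 1 TPM or more, 3 of 11 sensory ganglion markers, 2 of 10 skeletal muscle markers, 3 of 13 leukocyte markers and 0 of 8 adipocyte markers were measured, against 14 of 14 motor neuron markers and 22 of 22 astrocyte markers. Of Schwann cell and root, meningeal fibroblast and blood markers, 6 of 9, 8 of 10 and 5 of 7 were measured. The blood marker Hba-a2, an alpha globin for which reads can be split with its near-identical copy, had a mean of 617 TPM in control and 451 TPM in cHet. The mean log2 levels of these 3 lists overlapped between the groups.

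Tardbp (chromosome 4, 148612382 to 148627019, minus strand, GRCm38) gave no detectable difference between the groups. Control mice had 181, 167, 169 and 166 TPM and cHet mice had 178, 173, 172 and 158 TPM. The ranges overlapped almost fully, with means of 171 ± 6.73 and 170.4 ± 8.64 TPM (SD, n = 4), a ratio of 0.998 and an SE of 0.0422 on the log2 scale (limma adjusted p = 0.984). In cKO the gene fell by 0.20 (adjusted p = 0.0113, limma), with 150.3, 150.2, 151 and 140.5 TPM. These are levels in whole cord, in which fewer cells of a type and less RNA per cell cannot be told apart. Gfap itself was at 1199, 1092, 1212 and 1195 TPM in control and 1046, 1116, 1160.5 and 1171 TPM in cHet, and its groups overlapped (log2 difference -0.06, SE 0.0646, limma adjusted p = 0.762).

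The cytosolic heat shock chaperones keep other proteins folded in the cytosol and are turned up together when unfolded protein builds up. Of 26 members measured, 17 were nominally higher in cHet (65.4%) and 0 lower, against 7.34% and 3.97% of all genes. The share nominally higher was larger among ribosomal proteins (75%) and complex V subunits (88.9%), described below. The groups did not overlap for 9 members (34.6%, all higher in cHet, against 4.1% of all genes). Of the 26 differences 24 were above 0, and the median difference was 0.11 against 0.01 for all genes. None passed the adjusted threshold. In single cHet libraries the mean of the list lay 0.21, 0.20, 0.06 and 0.20 above the control mean, so cHet replicate 3 stood nearest to the controls, whose own values lay within 0.03 of their mean.

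Hspa8, the constitutive cytosolic Hsp70 (chromosome 9, 40800984 to 40810087, plus strand), was the most abundant member with a non-overlapping difference. It measured 1295, 1264, 1190.3 and 1196 TPM in control mice and 1503, 1447, 1348 and 1405 TPM in cHet mice. All 4 cHet mice exceeded all 4 controls, by 1.15-fold in the mean (log2 difference 0.21, SE 0.0410, limma adjusted p = 0.130). Hspa1a, a stress-inducible Hsp70, was at 4.36, 4.44, 4.38 and 4.47 TPM in control and at 7.55, 6.43, 5.10 and 7.52 TPM in cHet. Its control values were nearly equal and its cHet values spread widely, all of them higher (1.44-fold, log2 0.53, SE 0.115, limma adjusted p = 0.169). The nearly identical Hspa1b, for which reads can be split with Hspa1a, was at 1.76 to 2.30 TPM in control and at 5.08, 4.20, 1.72 and 7.77 TPM in cHet. There cHet replicate 3 lay below every control, so these groups overlapped.

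Chordc1, a co-chaperone of Hsp90, had 75.9, 78.4, 71.8 and 82.4 TPM in control and 99.7, 90.2, 89.5 and 99.8 TPM in cHet, again without overlap (1.23-fold, log2 0.30, SE 0.0671, limma adjusted p = 0.177). Hsph1, a nucleotide exchange factor for Hsp70, lay at 171 to 191 TPM in control and at 197 to 203 TPM in cHet. Dnaja4, a J-domain co-chaperone, lay at 34.5 to 38.9 TPM in control and at 40.0 to 42.8 TPM in cHet. Both were separated in the same way, by 0.17 and 0.18 on the log2 scale. Cryab, a small heat shock protein of oligodendrocytes and astrocytes, was at 431, 383, 393 and 415 TPM in control and at 542, 498, 433 and 505 TPM in cHet (log2 0.28, SE 0.0980, limma adjusted p = 0.319). Its lowest cHet value, from replicate 3, passed the highest control by little. The difference was not seen for every chaperone: Hsp90aa1 and Hsp90ab1, the abundant Hsp90 pair, differed by 0.09 and 0.07 without reaching a nominal p, and lay below 0 after cyclic loess scaling. Hsf1, the transcription factor of the heat shock response, lay at -0.10, and Bag3, an inducible Hsp70 partner, at 0.04 (-0.01 with equal library totals).

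**Figure D1:**
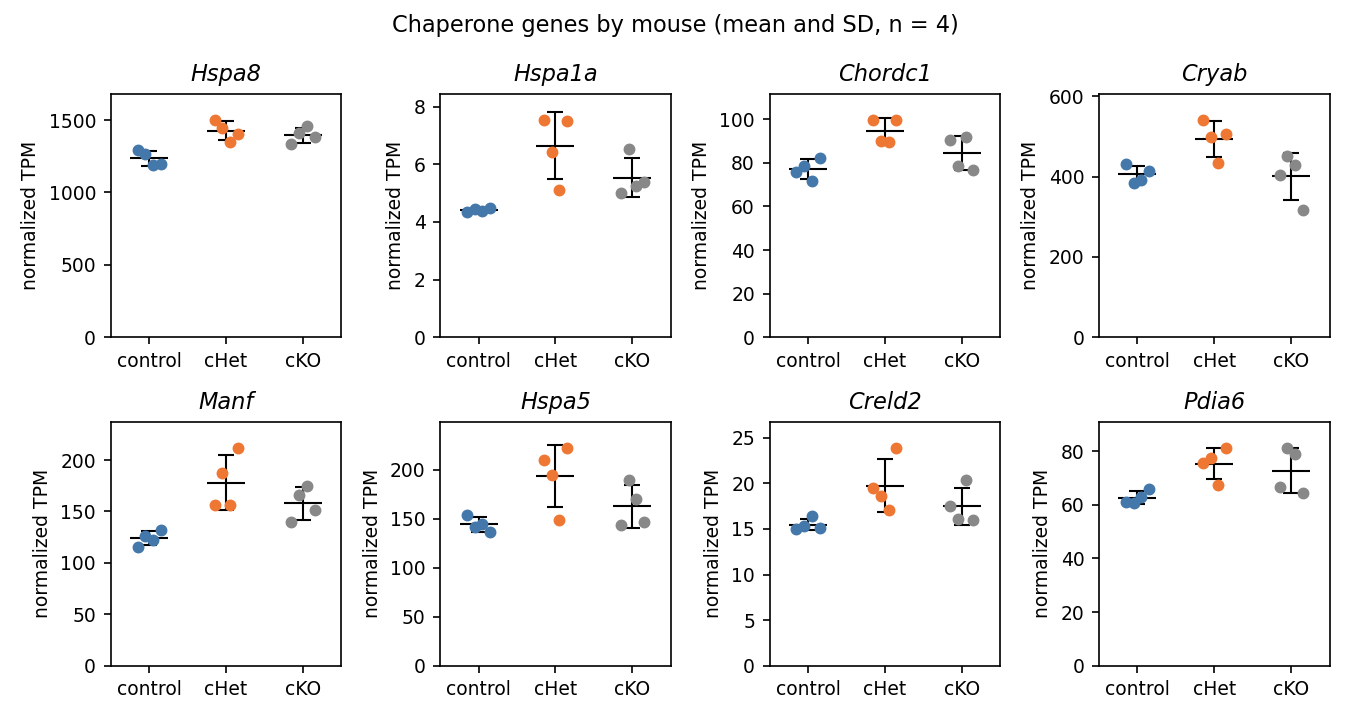
Normalized TPM (vertical axis, from 0) of 8 chaperone genes in single mice of the control, cHet and cKO groups, with the mean and SD of 4 mice as bars. For Hspa8, Hspa1a, Chordc1, Cryab, Manf, Creld2 and Pdia6 every cHet point lies above every control point, and for Hspa5 cHet replicate 3, at 149 TPM, lies within the control range.

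Chaperones of the endoplasmic reticulum formed another group. These proteins fold secreted and membrane proteins and are the textbook targets of the unfolded protein response. Of 24 members measured, 12 were nominally higher and 1 lower, 19 differences were above 0, and the median was 0.14. The groups did not overlap for 5 higher members (20.8%) and 1 lower member, against 4.1% and 2.11% of all genes. Single cHet libraries lay 0.15, 0.24, 0.04 and 0.19 above the control mean, replicate 3 again the nearest to it. Without cHet replicate 2 the median was 0.08 with 9 members nominally higher.

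Manf, a secreted protein of the endoplasmic reticulum lumen with trophic action (chromosome 9, 106838312 to 106891979, minus strand), had the smallest p of the group. It measured 115, 127, 122 and 131 TPM in control and 157, 187, 156 and 212 TPM in cHet, with means of 124 ± 6.85 and 178 ± 26.8 TPM (SD, n = 4). The difference was 1.42-fold (log2 0.51, SE 0.0976, limma adjusted p = 0.127), larger than the spread in either group. Hspa5 encodes BiP, the Hsp70 of this compartment. Its levels were 154, 142, 145 and 136 TPM in control and 209.6, 194, 149 and 222 TPM in cHet, so 3 of 4 cHet mice lay above all controls (log2 0.41, SE 0.117, limma adjusted p = 0.246). Creld2, a folding factor, was at 15.04 to 16.4 TPM in control and at 19.4, 18.7, 17.04 and 23.9 TPM in cHet. Pdia6, a disulfide isomerase, was at 60.7 to 66.1 TPM in control and at 75.6, 77.6, 67.3 and 81.1 TPM in cHet. Neither overlapped, and the isomerases Pdia3 and Pdia4 were separated too, by 0.19 and 0.22. Sdf2l1, a BiP partner, differed by 0.45, and Hsp90b1, the Hsp90 of this compartment, and the lectin chaperone Calr by 0.21 and 0.23, each with 1 or more cHet mice within the control range. The exception was Txndc11, a thioredoxin-domain protein, which was lower in every cHet mouse (17.9 to 19.7 TPM against 14.9 to 16.5 TPM, log2 -0.24, limma adjusted p = 0.177).

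The sensors upstream and the branch that leads to cell death held few such genes. Of 11 sensors and regulators of the unfolded protein response, 1 was nominally higher: Xbp1, the transcription factor of the Ire1 branch, with 35.003 to 42.2 TPM in control and 42.1 to 55.1 TPM in cHet (log2 0.28, limma adjusted p = 0.390). Among 20 members of the integrated stress response list, the targets of Atf4, 0 were nominally higher and 0 lower. Ddit3, which encodes the pro-apoptotic factor CHOP, differed by 0.09 (limma adjusted p = 0.459), and Atf4 itself by -0.02. Degradation and translocation factors of the same compartment had 4 of 24 nominally higher and a median of 0.06. That count was 1 without control replicate 2, 6 without cHet replicate 1, and 1 with equal library totals, where the median was 0.01. The proteasome had 8 of 31 nominally higher with a median of 0.05. Without control replicate 2 the proteasome count was 4, without cHet replicate 1 it was 12, and with equal library totals it was 1 with the median at -0.00.

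The promoters of these chaperones were read from RefSeq (GRCm38.p6) to set the sequences beside the levels. Each window ran from 250 bases before to 50 after the start, and 27025 genes had one. Heat shock factor binds inverted repeats of the unit GAA, and the pattern GAANNTTC, which reads the same on both strands, occurred in 9.04% of all genes. It occurred in 10 of the 21 heat shock chaperones with a window (47.6%), in 0 of 19 endoplasmic reticulum chaperones and in 4 of 56 ribosomal protein genes (7.14%). The longer pattern GAANNTTCNNGAA, which holds the shorter one, was searched on both strands and was found in 0.662% of genes. It was found in 2 of the 21 heat shock chaperones, Chordc1 and Hsph1 (9.52%), and in 0 of the 19 endoplasmic reticulum chaperones. Ribosomal protein genes also held it, in 2 of 56 cases, Rpl22 and Rps18 (3.57%). The endoplasmic reticulum stress element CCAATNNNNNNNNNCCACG, searched on both strands, occurred in 37 genes (0.137%). Among them were 7 of the 19 endoplasmic reticulum chaperones (36.8%: Calr, Canx, Creld2, Dnajc3, Hsp90b1, Hspa5 and Pdia6) and 0 of the 21 heat shock chaperones. Nominally higher were 9 of the 10 heat shock chaperones with the GAANNTTC pattern and 6 of the 11 without it, and 6 of the 7 endoplasmic reticulum chaperones with the stress element against 5 of the 12 without it; these splits were not tested. A match is a stretch of letters and not evidence of binding.

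Stretches upstream of the start are shown for members with a difference in the direction of their list, with the heat shock pattern in capitals in the first 3 and the endoplasmic reticulum stress element in capitals in the last 3. They read 5′ to 3′ along the gene's strand. Hspa1a lies on the minus strand (chr17:34972228-34972285), and its window is identical to that of Hspa1b. Hspb1 (chr5:135887777-135887854, plus), a small heat shock protein, has the pattern at 2 places. Dnaja1 (chr4:40722319-40722376, plus) is a J-domain co-chaperone of Hsp70. Creld2 (chr15:88819495-88819563, plus) and Hsp90b1 (chr10:86705508-86705576, minus) hold the element in its reverse orientation, and Pdia6 (chr12:17266466-17266534, plus) in its forward orientation. Hsp90b1 has 2 matches upstream of the start, and the other one, in the forward orientation, lies outside the stretch shown.
Hspa1a: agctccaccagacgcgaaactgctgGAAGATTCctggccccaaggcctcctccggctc
Hspb1: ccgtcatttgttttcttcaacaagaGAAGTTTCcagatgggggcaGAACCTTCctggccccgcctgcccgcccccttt
Dnaja1: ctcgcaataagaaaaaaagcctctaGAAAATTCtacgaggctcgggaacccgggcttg
Creld2: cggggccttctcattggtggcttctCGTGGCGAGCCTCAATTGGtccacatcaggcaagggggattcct
Pdia6: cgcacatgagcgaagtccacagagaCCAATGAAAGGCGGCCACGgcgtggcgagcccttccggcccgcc
Hsp90b1: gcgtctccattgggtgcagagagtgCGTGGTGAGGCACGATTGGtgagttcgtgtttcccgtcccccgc

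Of the genes with these stretches, Hspb1 was at 48.2 to 54.3 TPM in control and at 58.7, 60.1, 50.8 and 60.2 TPM in cHet, a difference of 0.19 with cHet replicate 3 inside the control range. Dnaja1 was at 327 to 377 TPM in control and at 374 to 423 TPM in cHet, a difference of 0.16. Hsp90b1 was at 191 to 211 TPM in control and at 207 to 257 TPM in cHet. In all 3 the single overlap came from 1 cHet mouse.

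Nuclear-encoded subunits of the respiratory chain and ATP synthase, which make up the complexes of mitochondrial oxidative phosphorylation, were nominally higher in 60 of 82 cases and lower in 0. Differences were above 0 for 81 of 82, with a median of 0.11. The groups did not overlap for 40 of the 82, all higher in cHet, against 4.1% of all genes. The counts ran through the complexes: 26 of 37 subunits of complex I (the NADH dehydrogenase), 1 of 4 of complex II, 6 of 10 of complex III, 11 of 13 of complex IV (cytochrome c oxidase) and 16 of 18 of complex V (the ATP synthase) were nominally higher. Without control replicate 2 the complex I count was 16. No subunit passed the adjusted threshold.

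Uqcrh, the hinge subunit of complex III, is the member with the smallest p. It was at 823, 771, 783 and 796 TPM in control and at 894, 941, 901 and 880.2 TPM in cHet (log2 0.19, SE 0.0283, limma adjusted p = 0.0860). Every cHet mouse lay above every control, and the same held for Cox8a of complex IV (1108 to 1165 against 1259.6 to 1319.5 TPM), Ndufb2 of complex I (311 to 336 against 355 to 393 TPM) and Atp5e of complex V (736 to 804 against 852 to 929 TPM). Their differences were 0.17, 0.22 and 0.20 on the log2 scale. Cox7a1, the heart and muscle form of a complex IV subunit, differed most among the nominal members of the complex IV list, with 51.7, 44.0, 46.1 and 59.1 TPM in control and 57.3, 73.1, 70.2 and 64.7 TPM in cHet (log2 0.40, limma adjusted p = 0.194). One cHet mouse lay under the highest control. Cox8b, the muscle form of another such subunit, had no overlap and was at 6.79 to 12.5 TPM in control and at 14.4 to 19.6 TPM in cHet (log2 0.77, SE 0.161, limma adjusted p = 0.144).

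The mitochondrial genome itself gave a smaller count of nominally higher genes. Of its 13 protein-coding genes, 12 had a difference above 0 (median 0.04, -0.01 with equal library totals), 1 was nominally higher (mt-Nd3, 0.15) and 1 lower (mt-Atp8, -0.34, in which control replicate 1 at 11305 TPM stood apart from 6622 to 7587 TPM in the other controls), and the groups overlapped for all 13. Together these genes took 17.3% ± 1.08 of the summed TPM in control and 17.2% ± 0.886 in cHet (SD, n = 4; exact permutation test, two-sided, p = 0.943).

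Among proteins that shape the inner membrane, 7 of 21 organisers of the cristae and CHCHD-domain proteins were nominally higher and 0 lower (median 0.08). The count was 4 without cHet replicate 1 and 3 with equal library totals. Chchd2, an intermembrane-space protein linked to complex IV and to inherited Parkinson's disease (chromosome 5, 129881156 to 129887470, minus strand), had the smallest p of all 15271 genes. It measured 502, 481, 473 and 504 TPM in control and 567, 557, 566 and 560.2 TPM in cHet. The cHet mice lay within 10 TPM of each other and all above the controls (1.15-fold, log2 0.20, SE 0.0269, limma adjusted p = 0.0860). Minos1, a subunit of the cristae junction complex, was at 261 to 275 TPM in control and at 304 to 329.6 TPM in cHet. Chchd10, a partner of Chchd2 in which mutations cause motor neuron disease, was at 300.3 to 359.6 TPM in control and at 348 to 388 TPM in cHet, with overlap. Going the other way, Timm44, which tethers the import motor to the inner membrane, had 62.3 to 66.5 TPM in control and 49.3, 58.5, 52.0 and 52.8 TPM in cHet (log2 -0.26, SE 0.0526, limma adjusted p = 0.130). Import factors as a list had 6 of 22 nominally higher and 1 lower, and 3 higher with equal library totals.

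Cytosolic ribosomal proteins, the protein subunits of the ribosome, were nominally higher in 57 of 76 cases and lower in 0, with a median of 0.12. The groups did not overlap for 40 members (52.6%, all higher in cHet, against 4.1% of all genes). Rplp0, of the large subunit stalk, was at 210.3 to 218 TPM in control and at 231 to 239.9 TPM in cHet. Rpl36a, a large subunit protein that is not in the counted list, had 349, 392, 388 and 405 TPM in control and 448, 480.5, 469 and 436 TPM in cHet (log2 0.26, SE 0.0521, limma adjusted p = 0.130). Ribosomal protein genes have many processed pseudogenes, and the sources used here do not say how reads were divided among them. Of the mitochondrial ribosome, 21 of 74 members were nominally higher and 2 lower, and the median was 0.07. The count higher was 14 without control replicate 2, 8 with the length trend removed and 7 with equal library totals, where the median was 0.02. In single cHet libraries the cytosolic list lay 0.12, 0.22, 0.08 and 0.07 above the control mean. Without cHet replicate 2, 42 of the 76 were nominally higher.

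**Figure D2:**
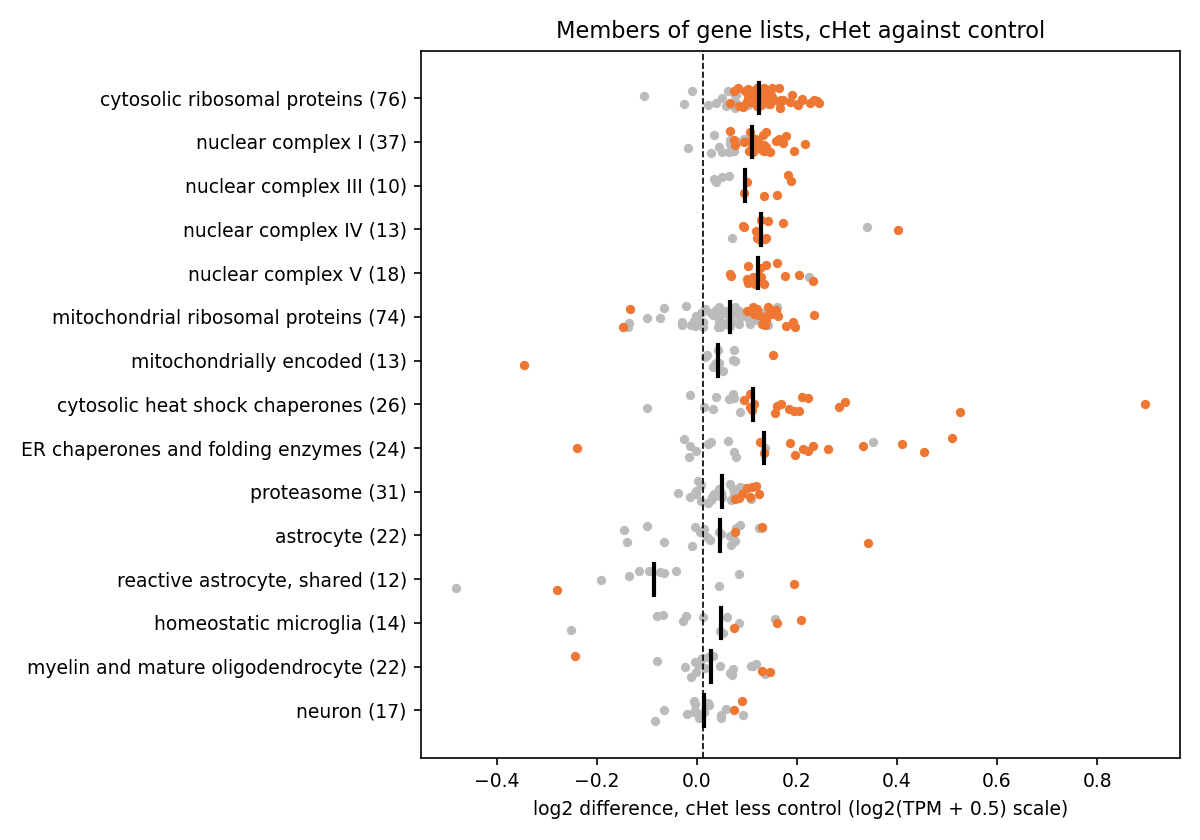
Log2 difference between cHet and control (horizontal axis, log2(TPM + 0.5) scale) of each member of 15 gene lists, with the number of members measured in brackets. Orange points have an unadjusted limma p under 0.05 and grey points do not, the black bar is the list's median and the dashed line the median of all genes (0.01). Bars of the ribosomal, respiratory and chaperone lists lie right of the dashed line, and the bar of the shared reactive astrocyte list lies left of it.

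**Figure D3:**
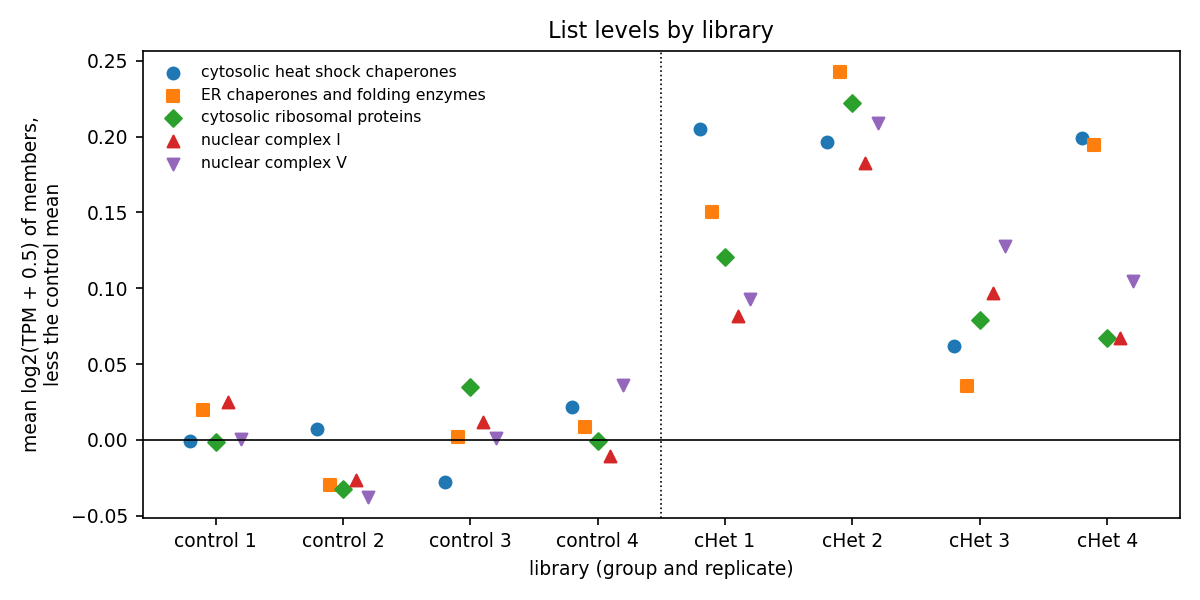
Mean log2(TPM + 0.5) of the members of 5 lists in each of the 8 libraries, less the mean of the 4 control libraries (vertical axis). All control points lie between -0.04 and 0.04. In cHet replicate 3 both chaperone lists lie at 0.06 and 0.04, under the other cHet libraries, whereas cHet replicate 2 is the highest for the ribosomal list and for complexes I and V.

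Library-wide values differed between the groups in the same libraries. The summed TPM of a library, which the authors' normalization left unequal, was 976565, 954895, 958580 and 978621 in control and 983452, 1023987, 1011685 and 990715 in cHet. The 4 cHet sums were all higher, by 3.65% in the mean (exact permutation test, two-sided, p = 0.0286, the smallest that 4 against 4 can give). Short transcripts were also relatively more abundant: the mean log2 level of the third of genes with the shortest transcripts lay 0.249, 0.238, 0.253 and 0.247 above that of the third with the longest in control and 0.278, 0.298, 0.282 and 0.267 above it in cHet (means 0.246 ± 0.00617 and 0.281 ± 0.0132, SD, n = 4; exact permutation test, two-sided, p = 0.0286). With any single control left out the p for the sums was 0.0571, and without control replicate 2 so was that for the length difference (exact permutation tests). The ribosomal and respiratory genes are short, with median transcript lengths of 757.5 and 743.5 bases. The cytosolic and endoplasmic reticulum chaperones are not, with 2522.5 and 2430 bases.

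**Figure D4:**
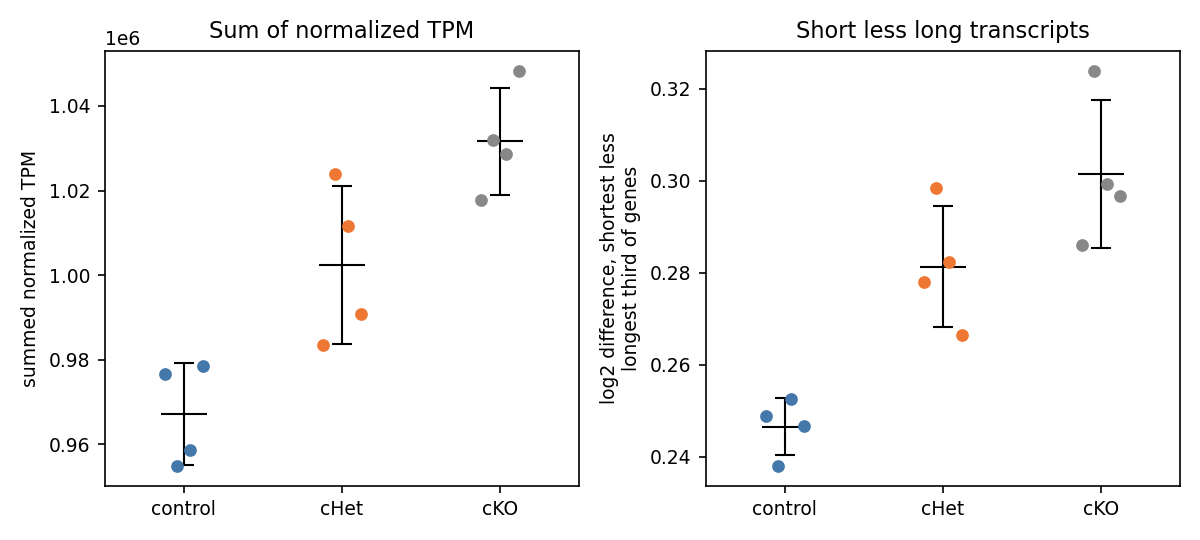
Left, summed normalized TPM of each library by group. Right, mean log2(TPM + 0.5) of the third of genes with the shortest transcripts less that of the third with the longest, by library. Points are mice and bars are the mean and SD of 4. On both axes, neither of which starts at 0, the 4 cHet points lie above the 4 control points, and the cKO means (1031666 and 0.301) lie above those of cHet.

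Over all genes, the share nominally higher in cHet fell along the 5 length classes, from 16.1% among the shortest (up to 1373 bases) through 7.999%, 5.28% and 4.02% to 3.35% among the longest. It also depended on the level, with 26.7% of the 1520 genes at a mean of 100 TPM or more nominally higher and 2.30% lower, against 2.85% and 3.06% of genes at 1 to 5 TPM. Short genes outside the ribosomal and respiratory lists shared it: 364 of 2835 were nominally higher (12.8%), and of the 414 among them at 100 TPM or more, 145 (35.02%, median difference 0.08). That share can be set beside 57 of 76 ribosomal and 60 of 82 respiratory genes. What the sums and the length trend contribute to the list counts was not tested as a cause, but the counts were recomputed without them.

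With all libraries set to the same total, 2.45% of all genes were nominally higher, and the counts were 10 of 26 heat shock chaperones, 7 of 24 endoplasmic reticulum chaperones, 27 of 76 ribosomal proteins, 10 of 37 complex I subunits, 6 of 13 of complex IV and 9 of 18 of complex V. With each library's trend on transcript length removed, 4.99% of all genes were nominally higher. The counts were then 16 of 26 heat shock chaperones and 12 of 24 endoplasmic reticulum chaperones, while the ribosomal count went from 57 to 25, complex I from 26 to 7, complex IV from 11 to 3 and complex V from 16 to 6. Quantile and cyclic loess scaling do not use transcript length, and under them 4.67% and 4.76% of all genes were nominally higher. The counts were then 12 and 12 for heat shock chaperones, 10 and 10 for endoplasmic reticulum chaperones and 19 and 24 for ribosomal proteins. For complexes I, IV and V they were 8 and 7, 3 and 4, and 4 and 3. The medians of all these lists were above 0 under every scaling tried.

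**Figure D5:**
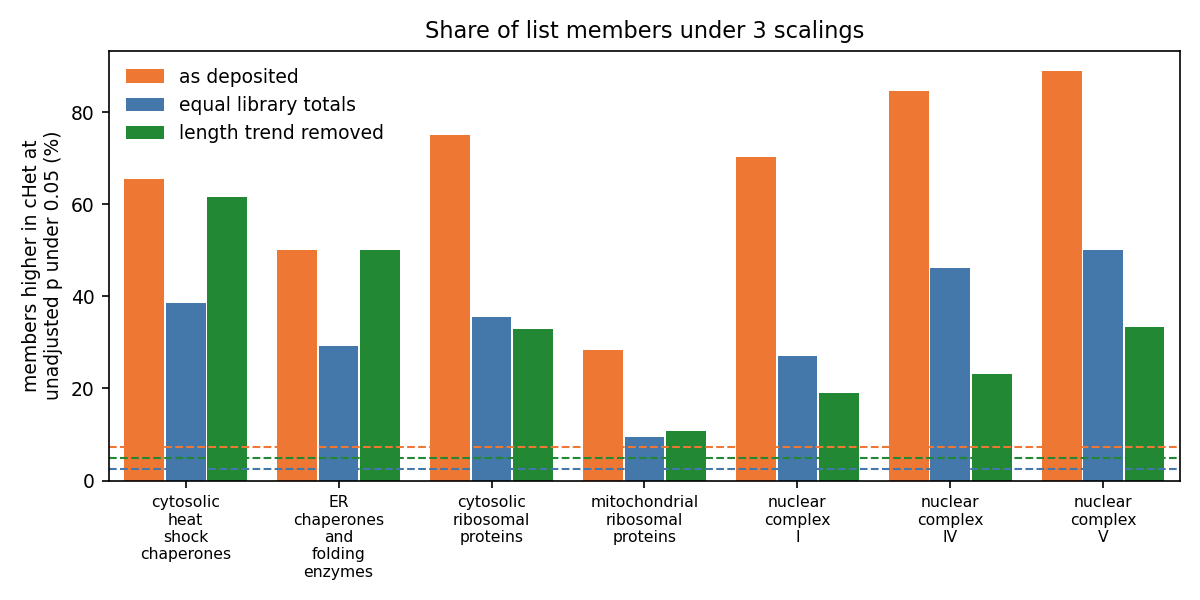
Percentage of members of 7 lists that were higher in cHet at an unadjusted limma p under 0.05 (vertical axis), with values as deposited, with equal library totals and with each library's length trend removed. The dashed lines give the share of all 15271 genes in the same 3 settings (7.34%, 2.45% and 4.99%). Bars of both chaperone lists are about as high with the length trend removed as with deposited values, and bars of the ribosomal and complex I, IV and V lists are lower.

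RNA-binding proteins were of interest because of TDP-43. Of 16 proteins in the list of TDP-43 and other RNA-binding proteins linked to amyotrophic lateral sclerosis, 0 were nominally higher and 2 lower. Ewsr1, a nuclear RNA-binding protein, was at 246 to 275 TPM in control and at 219 to 258 TPM in cHet, a difference of -0.12 with overlapping groups. Outside the list, Hnrnpu, a nuclear scaffold protein, was at 141 to 149 TPM in control and at 124 to 133 TPM in cHet (log2 -0.15, SE 0.0302, limma adjusted p = 0.130), and Sarnp, of the messenger RNA export machinery, at 72.9 to 77.2 TPM and 86.1 to 90.1 TPM (log2 0.22, limma adjusted p = 0.0860). Txnl4a, of the U5 splicing particle, was likewise higher in all cHet mice (21.6 to 24.7 against 28.3 to 30.1 TPM, log2 0.31, limma adjusted p = 0.0860), although the spliceosome list as a whole had 4 of 31 nominally higher and 1 lower (1 and 0 with the length trend removed).

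Genes known to gain cryptic exons when TDP-43 is lost in mouse cells had 1 of 16 members nominally higher (Synj2bp, 0.17) and 1 lower (Poldip3, -0.11), with a median of -0.05. The count lower was 3 without control replicate 2. With equal library totals it was 5, with a median of -0.11, and 9.61% of all genes were nominally lower in that setting. Of 15 long-intron neuronal targets of TDP-43, 0 were higher and 1 lower (3 lower with equal library totals). Gene-level TPM does not show splicing, so exon use was not measured.

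Astrocyte genes differed little. Of 22 astrocyte markers 3 were nominally higher and 0 lower (median 0.05, -0.00 with equal library totals). S100b, a calcium-binding protein of astrocytes, was at 839 to 914 TPM in control and at 917 to 999 TPM in cHet. Gjb6, the astrocyte gap junction protein connexin 30, was at 98.7, 99.9997, 91.8 and 85.2 TPM in control and at 106, 130.1, 104 and 141 TPM in cHet (log2 0.34, SE 0.110, limma adjusted p = 0.296). Neither overlapped, whereas Aldh1l1, a folate enzyme used as a pan-astrocyte marker, differed by -0.14 with overlap. Reactive astrocyte genes were mixed. Of 12 shared reactive genes, 1 was nominally higher (Hspb1) and 1 lower (Aspg, -0.28), with a median of -0.08. Lists of A1-type and A2-type reactive genes had 0 of 12 and 1 of 9 nominally higher, with medians of 0.04 and 0.10 (-0.01 and 0.06 with equal library totals). Relative to the control mean, the shared list lay at -0.03 to 0.03 in control and at -0.14 to -0.05 in cHet. The A1-type list lay at -0.01, -0.00, 0.02 and -0.01 in control and at 0.05, 0.03, 0.05 and 0.06 in cHet, without overlap, and the A2-type list overlapped. In cKO, which shares the control mice, 4 of the 12 shared and 5 of the 12 A1-type genes rose at a limma adjusted p under 0.05, against 5.68% of all genes.

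Of 14 homeostatic microglia markers 3 were nominally higher (21.4%, against 7.34% of all genes) and the groups overlapped for all 14 (median 0.05). None of them was nominal without cHet replicate 4 or with equal library totals, where the median was -0.00. Of 17 disease-associated microglia genes 4 were higher (23.5%) and 1 lower, and 3 had no overlap (17.6%, against 4.1% of all genes). These 3 were Fth1, Ctsd and Tyrobp. Fth1 had the smallest p of the list, with a mean of 9749 TPM in control. The cell type that gave these levels in whole cord was not measured. With equal library totals 2 of the 17 were nominally higher, and with quantile or cyclic loess scaling 1 was. Tyrobp, a signalling adaptor of microglial receptors, was at 42.2 to 44.6 TPM in control and at 47.7 to 52.6 TPM in cHet (log2 0.21, SE 0.0629, limma adjusted p = 0.260). C1qb, a chain of the first complement component and a member of the complement list, was at 59.9 to 65.3 TPM in control and at 66.8 to 73.6 TPM in cHet. Both were without overlap, and both rose further in cKO, by 0.50 and 0.53. Complement, class I antigen presentation and interferon response lists had medians of -0.03, -0.05 and -0.04. Nominally higher were 1 of 10, 1 of 14 and 2 of 18 members (10%, 7.14% and 11.1%, against 7.34% of all genes). Nominally lower were 0, 1 and 1 (0%, 7.14% and 5.56%, against 3.97% of all genes). The 2 higher members of the interferon list were 0 without control replicate 1.

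Of 22 myelin genes 2 were nominally higher and 1 lower (median 0.03, -0.02 with equal library totals). Ermn, a cytoskeletal protein of myelinating oligodendrocytes, was at 149 to 157 TPM in control, 165 to 174 TPM in cHet and 113 to 137 TPM in cKO, so the cHet and cKO mice lay on opposite sides of the controls (log2 0.15, limma adjusted p = 0.327, and -0.28, limma adjusted p = 0.00552). Anln, a septin-binding protein of the same cells, had 61.1 to 65.5 TPM in control and 69.1 to 81.9 TPM in cHet (log2 0.26, SE 0.0626, limma adjusted p = 0.177), and fell in cKO by 0.25. Opalin, a membrane protein of mature oligodendrocytes, was at 49.4 to 58.4 TPM in control and at 39.8, 53.9, 46.6 and 40.8 TPM in cHet. That difference of -0.24 came with overlap. Of neuronal, motor neuron and synaptic lists 2 of 17, 0 of 14 and 2 of 20 members were nominally higher and 0 were lower. The synaptic count was 4 without cHet replicate 4, and with equal library totals the neuronal and synaptic counts were 0.

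Genes with the strongest changes in cKO were read in cHet. Both comparisons use the same 4 control mice, so the values stand side by side and are not independent. The 10 named genes that rose most in cKO without overlap, by 1.07 to 1.65 on the log2 scale, differed in cHet by -0.22 to 0.41 with a median of 0.11. Of these, 2 were nominal in cHet and 1 had no overlap. The 10 that fell most, by 0.99 to 1.92, differed in cHet by -0.48 to 0.15 with a median of -0.17. Of these, 1 was nominal in cHet and 2 had no overlap. Over all genes tested, 11.3% were nominal in cHet, and 4.1% were higher and 2.11% lower without overlap. The members were chosen for their change in cKO, so their distance from cKO was not tested.

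Hsd11b1, which regenerates active glucocorticoid, had 36.7, 33.9, 37.3 and 36.3 TPM in control, 40.3, 43.7, 37.4 and 42.6 TPM in cHet and 75.0, 85.2, 81.2 and 72.4 TPM in cKO. The cHet mice lay just above the controls (log2 0.18, SE 0.0605, limma adjusted p = 0.311) and far below the cKO mice. Cox7a1 was at 114 to 140.1 TPM in cKO, above all cHet mice. Gli1, a transcription factor of hedgehog signalling, was at 2.98, 4.47, 6.22 and 6.11 TPM in control, 3.94, 3.39, 4.73 and 5.19 TPM in cHet and 0.639, 0.608, 0.870 and 1.66 TPM in cKO. Control and cHet overlapped widely, and every cKO mouse lay below both. Dmp1, a secreted matrix phosphoprotein, was ordered by genotype, with 7.43 to 8.15 TPM in control, 9.59 to 11.2 TPM in cHet and 14.3 to 17.3 TPM in cKO. Its difference in cHet was 0.36 (SE 0.0703, limma adjusted p = 0.129). Lgals3bp, a secreted glycoprotein of the interferon response, was instead lowest in cHet, at 12.6 to 13.4 TPM against 14.2 to 16.9 TPM in control and 19.96 to 20.5 TPM in cKO (log2 -0.27, SE 0.0532, limma adjusted p = 0.130).

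Single genes outside the lists included some of the smallest p-values. Plcd4, a phospholipase C, had 32.5 to 34.7 TPM in control and 38.3 to 40.1 TPM in cHet (log2 0.21, SE 0.0325, limma adjusted p = 0.0860). Trmt13, a transfer RNA methyltransferase, led the genes that were lower. It measured 22.1, 20.6, 22.03 and 22.1 TPM in control and 17.2, 16.3, 17.99 and 18.7 TPM in cHet (log2 -0.30, SE 0.0497, limma adjusted p = 0.103). Slc23a2, the ascorbate transporter of brain cells, had 54.6 to 59.3 TPM in control and 47.0 to 51.7 TPM in cHet (log2 -0.22, SE 0.0373, limma adjusted p = 0.119). All 3 were fully separated.

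Large differences were rare and mostly in low genes. Of 72 genes that differed by at least 1 on the log2 scale, 35 were nominal, 49 had a mean under 5 TPM and 61 carried only a predicted or clone name. Nanp, a phosphatase of sialic acid synthesis, had 4.79, 9.15, 2.81 and 5.01 TPM in control and 11.3, 12.5, 11.0 and 11.6 TPM in cHet (log2 1.13, SE 0.262, limma adjusted p = 0.177). Its control mice varied far more than its cHet mice. Sh3tc1, an SH3-domain protein, was at 1.04 to 1.17 TPM in control and at 2.58, 4.45, 2.11 and 2.61 TPM in cHet. Sap30, a subunit of the Sin3 histone deacetylase complex, was at 3.29 to 4.28 TPM in control and at 5.54, 5.93, 5.63 and 8.35 TPM in cHet (log2 0.68, SE 0.129, limma adjusted p = 0.119). On the lower side, Spink8, a protease inhibitor, had 3.76, 3.74, 3.41 and 5.20 TPM in control and 2.11, 2.73, 0.741 and 0.422 TPM in cHet. Eya2, a transcriptional coactivator, had 9.91 to 16.2 TPM in control and 6.43 to 8.69 TPM in cHet (log2 -0.57, SE 0.158, limma adjusted p = 0.227).

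The authors' deposited table for this comparison lists 28 of 17910 genes with a Wald q under 0.05 (0.156%), 23 higher and 5 lower in cHet, and 0 with a likelihood ratio q under 0.05, the smallest of those being 0.0990. Of the 28, 27 were among the genes tested here, and all 27 were nominal by limma with groups that did not overlap. Of all genes tested, 11.3% were nominal, and 4.1% were higher and 2.11% lower without overlap. Both tests use the same mice, so the count is not independent evidence for these genes. In the authors' deposited table, Usp31, a ubiquitin protease, has a Wald q of 0.000132. Its TPM was 31.6 to 32.3 in control, 35.4 to 39.9 in cHet and 25.97 to 32.5 in cKO (log2 0.24 for cHet, SE 0.0621, limma adjusted p = 0.208). Slc5a3, the myo-inositol transporter, has a Wald q of 0.00195 in the authors' deposited table. It was at 5.11 to 6.06 TPM in control and at 6.98 to 8.05 TPM in cHet, and its gene model lies within that of Mrps6 on the same strand of chromosome 16 (92058270 to 92112227), so reads of the shared part cannot be told apart. Mrps6, a mitochondrial ribosomal protein, was at 54.8 to 58.7 TPM in control and at 61.7 to 69.5 TPM in cHet.

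The effect of genotype was compared between females and males by label, with 2 mice of each sex in a group. The difference between the sexes was called for 1 of 15271 genes (0.00655%) and was nominal for 850 (5.57%). The called gene, Gm16867, known only by a predicted name, had 1.13 and 1.20 TPM in the controls labelled male, 9.92 and 8.72 TPM in the female controls, and 17.98, 19.4, 12.6 and 16.7 TPM in the cHet mice (female less male effect -2.91, SE 0.287, limma adjusted p = 0.0484). Its male value rests in part on control replicate 1, the library that goes against its label. Without that library 0 genes were called and 746 were nominal, with a smallest adjusted p of 0.409 (limma).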

How the data were processed

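RNA of whole spinal cord was sequenced from 12 mice, of which 8 enter the comparison. Per the labels' protocols, the cord was flash frozen, RNA came from a Trizol extraction and the kit was Illumina TruSeq, with no strand setting stated. The values are the authors' normalized TPM, deposited as a signal per gene that is never negative and whose library sums are unequal. Kallisto 0.44.0, sleuth 0.30.0 and the genome build GRCm38 are named in the submitters' processing notes. The authors' deposited table for the comparison gives p-values and q-values of a Wald and a likelihood ratio test, as listed, and an effect score of unstated scale, deposited beside them, of which only the sign was used.

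A gene was kept where its 8 libraries averaged 1 TPM or more, 0.5 was added before the log2 transform, and limma 3.58.1 in R 4.3.3 (lmFit, contrasts, eBayes with trend, two-sided) was fitted to all 12 mice without covariates, with Benjamini-Hochberg adjustment over 15271 genes. Single values per library were compared by exact permutation over 70 assignments. The limma step was tested on simulated data. Transcript lengths and gene positions are from GENCODE M21 (a length for 15060 genes, 98.6%), and promoters from RefSeq (GRCm38.p6).

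The comparison and its 55 gene lists were chosen with earlier results of these data known. Named genes were Tardbp and Gfap, the genes with the smallest p and the largest differences in each direction without overlap, the top of the authors' table, of each list the 2 members with the smallest p and up to 6 more without overlap, and the genes with the largest changes in cKO; a selection of these is printed. Hspa1b, Dnaja1, Cryab, Hsp90aa1, Hsp90ab1, Hsf1, Bag3, Hspa5, Hsp90b1, Calr, Canx, Dnajc3, Sdf2l1, Atf4, Chchd10, Aldh1l1, Fkbp5 and Zbtb16 fall outside this rule and were chosen after their values were seen. Alternatives were other pseudocounts, filters, scalings, variance settings, a sex covariate and leaving out each library; quantile, cyclic loess and length-trend scaling and the omission of control replicate 1 with a sex covariate were added after seeing the data. Some results are not reported here.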

Additional observations from a re-analysis of the deposited data

Results flagged for a closer look

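In each group of 4 the highest or lowest library was compared with the rest, and a library was marked where its gap to the nearest other passed Dixon's critical share of the group's range, which chance gives in about 1 in 20 groups. Over 160 groups examined 13 results were marked, so single marks can arise by chance. Control replicate 2 alone held Y-linked transcripts among the controls, with Ddx3y at 34.3 TPM and Eif2s3y at 37.7 TPM, although 2 controls are labelled male. Among chaperones, cHet replicate 3 stood below its group for Hspb1 (50.8 TPM) and Dnajc3 (27.2 TPM), control replicate 2 stood above its group for Hspb1 (54.3 TPM), and cHet replicate 4 was the highest for Pdia4 (34.1 TPM). Among the other genes, cHet replicate 4 was the highest for Sap30 (8.35 TPM) and the lowest for Txnl4a (28.3 TPM). It was also the highest for Fkbp5 (35.8 TPM) and Zbtb16 (30.1 TPM), 2 genes of the glucocorticoid response. Single controls were low for Txnl4a (21.6 TPM), Trmt13 (20.6 TPM) and Mrps6 (54.8 TPM). The cHet effect on Gm16867 differed between females and males by -2.91 on the log2 scale (limma adjusted p = 0.0484).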

How the results depend on the processing

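No paired analysis was possible because the replicate numbers follow accession order and the labels tie no mice across groups. The count of 0 called genes was 2 without a filter on low values and 0 to 1 when 1 library was left out (1 predicted gene each without control replicate 2 and without cHet replicate 4). The smallest limma adjusted p, 0.0860 in the main fit, was 0.251 with only the 8 mice compared and 0.272 with eBayes without trend. It was 0.0537 with equal library totals and 0.00981 to 0.252 with a library left out. The 1121 nominally higher genes became 374 with equal library totals, 355 with equal totals without mitochondrially encoded genes, 713 with quantile and 727 with cyclic loess scaling, and 845 to 1260 with a library left out. The 606 lower became 935 without a filter, 1467 and 1541 with the 2 kinds of equal total, and 493 to 676 with a library left out. Non-overlapping genes, 626 higher and 322 lower, became 195 and 804 with equal totals, 182 and 881 with equal totals without mitochondrially encoded genes, 399 higher with quantile scaling, and 1011 and 508 with a sex covariate and without control replicate 1. With 1 library left out they were 813 to 1127 higher and 501 to 612 lower, since fewer mice overlap less.

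The 1 gene called for the female less male effect became 27 without a filter, most of them with libraries listed at 0. It became 0 with a pseudocount of 1, equal totals, equal totals without mitochondrially encoded genes, median of ratios, quantile, cyclic loess or length-trend scaling, eBayes without trend or array weights, and 0 to 5 with a library left out (5 without control replicate 2, the only control library with male levels of Y-linked genes). Tardbp, at -0.00 as deposited, was 0.000240 with array weights, 0.00238 with the length trend removed and 0.0222 with a sex covariate and without control replicate 1, and -0.0247 to 0.0327 with a library left out. With equal library totals Tardbp was lower than as deposited, and the median difference of all genes was -0.04 in place of 0.01. The difference in summed TPM was 28118.5 to 41630.1 with a library left out and kept its sign. The exact permutation p was then 0.0571 with any 1 control left out and 0.0286 with any 1 cHet library left out. The difference in the mitochondrially encoded share was -0.547 to 0.207 percentage points and changed sign. The difference between short and long transcripts was 0.0291 to 0.0398, with an exact permutation p of 0.0571 without control replicate 2. Among named genes, Bag3 was at -0.0125 and -0.0145 with the 2 kinds of equal total and at -0.0187 to 0.103 with a library left out, Hsp90aa1 at -0.0571 with quantile and -0.00739 with cyclic loess scaling, and Hsp90ab1 at -0.0107 with cyclic loess scaling. With a library left out, Fkbp5 was at -0.0620 to 0.297 and Zbtb16 at -0.155 to 0.661, both lowest without cHet replicate 4. The cause of these changes was not tested.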

Other observations

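Glucocorticoid-responsive genes, which follow the stress hormone of the adrenal gland, were above 0 in 14 of 15 cases with a median difference of 0.27, and 2 were nominally higher. In single libraries the list lay at -0.22, -0.13, 0.40 and -0.05 in control and at 0.04, 0.05, 0.06 and 0.99 in cHet, relative to the control mean, so cHet replicate 4 stood apart. Fkbp5, a co-chaperone of the glucocorticoid receptor, was at 17.1 to 19.95 TPM in control and at 16.7, 16.9, 18.2 and 35.8 TPM in cHet. Zbtb16, a transcription factor induced by the same hormone, was at 6.501 to 7.94 TPM in control and at 5.10, 5.30, 8.67 and 30.1 TPM in cHet. Without cHet replicate 4 the median of the list was 0.09. In the same library the heat shock list lay at 0.20. In cHet replicates 1 and 2 the heat shock list lay at 0.21 and 0.20 and the hormone list at 0.04 and 0.05. In cHet replicate 3 both lists lay at 0.06. A relation between the 2 lists was not tested.

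Ependymal and cilium genes were above 0 in 11 of 11 cases with a median of 0.22, yet 0 were nominal: the control libraries themselves ranged from -0.34 in replicate 3 to 0.30 in replicate 2, and without control replicate 3 the median was 0.09. Blood genes were below 0 in 5 of 5 cases (median -0.41), with single libraries between -1.05 and 0.66. Lumbar and sacral Hox genes, which mark the level of the cord, were lowest in control replicate 3 and cHet replicate 3 (-0.28 and -0.25), and the list's median difference was 0.07. Of 19 glycolysis genes 3 were higher in cHet at an unadjusted limma p under 0.05 (median 0.04). With equal library totals 0 were higher and the median was -0.01, and with quantile and cyclic loess scaling 0 were higher and 7 and 6 lower. In cKO, a comparison that uses the same controls, 11 of the 19 rose at a limma adjusted p under 0.05 (median 0.17), against 5.68% of all genes. The count at an adjusted p is not comparable with that at an unadjusted p.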
